A study of Homo sapiens with 4 samples.

Results

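The genes of cholesterol and fatty acid synthesis were examined in BT-20 and MDA-MB-468 breast cancer cells after silencing of quinolinate phosphoribosyltransferase (QPRT), an enzyme of de novo NAD synthesis. The 32 genes were chosen by name as enzymes of both pathways and the proteins that control them, out of 50653 genes listed in the expression table. They comprised 5 regulators, 7 enzymes of the mevalonate steps, 11 enzymes from squalene to cholesterol, the sterol carrier STARD4 and 8 genes of fatty acid synthesis. The choice by name used no threshold on these values, but it was made with earlier results of these data known. All 32 had a mean FPKM of 1 or more over the libraries, as did 14321 genes in all, which were the genes tested. FPKM counts the sequenced fragments of a gene relative to its transcript length and to the size of the library.

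Total RNA was sequenced as 4 libraries, 1 for each combination of cell line and shRNA. The groups were BT-20 with control shRNA, BT-20 with QPRT shRNA, MDA-MB-468 with control shRNA and MDA-MB-468 with QPRT shRNA. Both are long-established human lines of triple-negative breast cancer. Per the study's methods, all 4 cultures were stable lentiviral transductants selected with puromycin, so the control cells carried the vector and the selection too. The culture medium was EMEM for BT-20 and Leibovitz L-15 for MDA-MB-468, both with fetal bovine serum, which itself supplies cholesterol and fatty acids. A difference between the lines and a difference between the media cannot be told apart. With 1 library per group, a difference between shRNAs within a line has no replicate check and no p-value, and the pair of lines is the only replication of the knockdown. In bulk RNA, fewer expressing cells and less RNA per cell cannot be told apart.

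Cholesterol is built from acetyl-CoA through mevalonate, isoprenoids and squalene, and fatty acids from the same acetyl-CoA through malonyl-CoA. Most enzymes of both routes are transcribed under the sterol regulatory element-binding proteins, which are encoded by SREBF1 and SREBF2. These are held in the endoplasmic reticulum by SCAP and the INSIG proteins when sterols are plentiful, and are released to the nucleus when sterols fall. SREBF2 products are best known for sterol genes and SREBF1 products for fatty acid genes. The known promoter elements are the sterol regulatory element and, close to it, the CCAAT box bound by NF-Y and the GC box bound by Sp1.

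The sequences upstream of the transcription start are shown for 7 of the genes because many of the members share elements there. The members were chosen as targets of the SREBP pathway, so the frequency of these elements among them is a description and not independent of the choice. They are the 250 bases before an annotated RefSeq start (GRCh38.p14), written 5' to 3' on the strand of the gene. Capitals mark CCAAT, read as ATTGG on the other strand, and the core CACNCCAC of the sterol element on either strand. HMGCS1, FDPS and MSMO1 are enzymes of sterol synthesis, INSIG1 and SREBF2 are regulators, SCD is a fatty acid desaturase, and PMVK is shown as a sterol enzyme without either element. HMGCS1 has a further annotated start without either element, and the window with the CCAAT boxes is shown.
HMGCS1, chr5:43313413-43313662, minus strand: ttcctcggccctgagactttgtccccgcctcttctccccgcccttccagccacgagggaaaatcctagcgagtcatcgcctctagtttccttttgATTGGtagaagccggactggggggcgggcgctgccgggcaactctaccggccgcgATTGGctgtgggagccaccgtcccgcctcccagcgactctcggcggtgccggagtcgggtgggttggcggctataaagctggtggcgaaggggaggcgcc
FDPS, chr1:155308616-155308865, plus strand: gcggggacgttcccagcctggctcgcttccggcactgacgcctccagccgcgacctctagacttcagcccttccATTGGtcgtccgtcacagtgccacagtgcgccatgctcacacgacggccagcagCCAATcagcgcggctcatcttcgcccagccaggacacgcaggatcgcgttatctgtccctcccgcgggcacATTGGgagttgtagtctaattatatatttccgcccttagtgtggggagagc
MSMO1, chr4:165327419-165327668, plus strand: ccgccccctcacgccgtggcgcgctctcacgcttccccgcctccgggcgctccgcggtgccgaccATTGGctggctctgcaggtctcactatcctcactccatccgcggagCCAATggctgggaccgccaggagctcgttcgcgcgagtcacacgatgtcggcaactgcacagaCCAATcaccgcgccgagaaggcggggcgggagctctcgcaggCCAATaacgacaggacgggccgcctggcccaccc
INSIG1, chr7:155297628-155297877, plus strand: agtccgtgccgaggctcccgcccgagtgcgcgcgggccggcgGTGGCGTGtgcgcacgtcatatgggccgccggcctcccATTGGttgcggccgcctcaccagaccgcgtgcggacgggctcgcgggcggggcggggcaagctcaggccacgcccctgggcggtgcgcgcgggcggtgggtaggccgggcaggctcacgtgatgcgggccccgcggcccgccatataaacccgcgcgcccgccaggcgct
SCD, chr10:100346983-100347232, plus strand: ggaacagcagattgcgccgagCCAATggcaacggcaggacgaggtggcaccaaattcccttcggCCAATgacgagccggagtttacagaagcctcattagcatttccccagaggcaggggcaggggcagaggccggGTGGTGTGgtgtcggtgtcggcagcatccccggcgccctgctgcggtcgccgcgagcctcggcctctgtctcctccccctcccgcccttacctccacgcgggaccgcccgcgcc
SREBF2, chr22:41832855-41833104, plus strand: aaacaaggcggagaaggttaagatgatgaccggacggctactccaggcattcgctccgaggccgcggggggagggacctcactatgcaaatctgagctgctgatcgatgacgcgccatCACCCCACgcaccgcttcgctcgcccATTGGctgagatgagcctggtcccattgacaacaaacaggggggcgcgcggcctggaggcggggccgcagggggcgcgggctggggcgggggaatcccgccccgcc
PMVK, chr1:154936720-154936969, minus strand: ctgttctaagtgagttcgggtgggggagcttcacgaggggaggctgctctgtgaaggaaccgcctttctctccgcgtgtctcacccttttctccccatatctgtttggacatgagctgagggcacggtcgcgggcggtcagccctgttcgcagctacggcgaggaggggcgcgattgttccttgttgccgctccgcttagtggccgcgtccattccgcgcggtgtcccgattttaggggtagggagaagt

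A RefSeq promoter entry was found for 28 of the 32 genes, with 39 windows in all. ACAT2, FASN, FDFT1 and SQLE had no entry. CCAAT was present on either strand in 20 of the 28 genes (71.4%), against 41.6% of the 10538 genes tested that had an entry. It was found in 13 of the 15 sterol enzymes with an entry, PMVK and CYP51A1 being the exceptions, in STARD4, in 4 of 7 fatty acid genes and in 2 of 5 regulators. MVK and NSDHL each held 5 copies and MSMO1 held 4. The core CACNCCAC was found in 6 of the 28 genes (21.4%), namely ACACA, IDI1, INSIG1, SC5D, SCD and SREBF2, against 6.50% of the genes tested. The longer form TCACNCCAC, which contains that core, was found in SREBF2 alone, 133 bases before the start, and in 1.17% of the genes tested. The GC box GGGCGG was present in 27 of the 28 genes, NSDHL being the exception, and in 74.2% of the genes tested. A match of letters is not a measured binding site, and a gene with several annotated starts had more windows in which a match could be found.

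QPRT, the targeted gene, was listed in BT-20 at an FPKM of 249 under control shRNA and 40.5 under QPRT shRNA, and at 117 and 18.3 for MDA-MB-468. Its log2 difference was -2.59 in BT-20, against -2.62 in MDA-MB-468. The libraries held 10322000 to 10945948 fragments, of which SCD took 11343 to 20212 and CYP51A1, the gene with the lowest mean FPKM of the 32, took 9 to 39. The epithelial markers EPCAM, KRT8, KRT18, KRT19 and CLDN7 were present in all 4 libraries, PGR was at 0, and ESR1 was between 1.05 and 5.76 FPKM. Markers of other tissues moved with the knockdown at low levels. In BT-20 the 8 intestinal markers summed to 20.5 CPM (fragments per 1000000 fragments of the library) under control shRNA and 9.72 under QPRT shRNA. In MDA-MB-468 they summed to 49.9 and 11.8. All 8 were lower in both lines. The 6 gastric markers, 5 of which were lower in both lines, summed to 11.2 and 3.39 in BT-20, against 23.2 and 3.58 in MDA-MB-468. The 4 plasma cell markers, 3 of which were lower in both lines, summed to 33.5 and 15.5 in BT-20, against 79.4 and 15.3 in MDA-MB-468. The 32 genes summed to at least 5746 CPM in each library. The part of other cells in the differences of the 32 genes was not tested. The 5 fibroblast markers, all lower in both lines, summed to 38.9 and 25.4 in BT-20, against 25.3 and 18.2 in MDA-MB-468. The 5 leukocyte markers, of which 2 or 3 were at 0 in each library, summed to at most 0.775. The 3 endothelial markers were between 215 and 298 CPM in BT-20 and between 3.88 and 4.48 in MDA-MB-468.

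Across the 32 genes, expression with QPRT shRNA was lower in sum in MDA-MB-468 and slightly higher in sum in BT-20. Together they accounted for 7934 CPM in MDA-MB-468 with control shRNA and 5746 with QPRT shRNA, which is 27.6% fewer. In BT-20 they accounted for 6322 and 6633, which is 4.92% more. The log2 difference, taken as log2(FPKM + 1) with QPRT shRNA minus control shRNA, was below 0 for 30 of the 32 genes in MDA-MB-468, where 47.6% of all genes tested were below 0. The exceptions were SCAP and FADS2. In BT-20 it was below 0 for 13 of the 32, where the share of all genes was 43.0%. The median over the 32 genes was -0.37 in MDA-MB-468 and 0.07 in BT-20, beside 0.01 and 0.05 over all genes tested.

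At a threshold of 1.5-fold, 7 of the 32 were lower in MDA-MB-468 under QPRT shRNA, where 3.71% of all genes were that much lower. They were HMGCS1, FDPS, FDFT1, HSD17B7 and CYP51A1 of the sterol steps and SCD and ELOVL6 of the fatty acid genes. CYP51A1 passed the filter on mean FPKM only through MDA-MB-468 with control shRNA, at 2.29, against 0.55 to 0.88 in the other libraries. Its place in this count is therefore not independent of the filter. FADS2 was the 1 gene that was 1.5-fold higher in MDA-MB-468 (5.46% of all genes). In BT-20, ELOVL6 was the 1 gene that was 1.5-fold higher (5.70% of all genes), and 0 of the 32 were 1.5-fold lower (3.27%). Counting error alone was assessed with an exact 95% interval (Clopper-Pearson) for the fragment ratio of each gene. It lay below 0 on the log2 scale for 25 of the 32 genes in MDA-MB-468 (21.0% of all genes) and above 0 for 2 (22.8%). In BT-20 it lay below 0 for 6, which were ACAT2, FDFT1, MVD, NSDHL, SREBF1 and STARD4 (16.6% of all genes), and above 0 for 12 (26.7%).

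**Figure D1:**
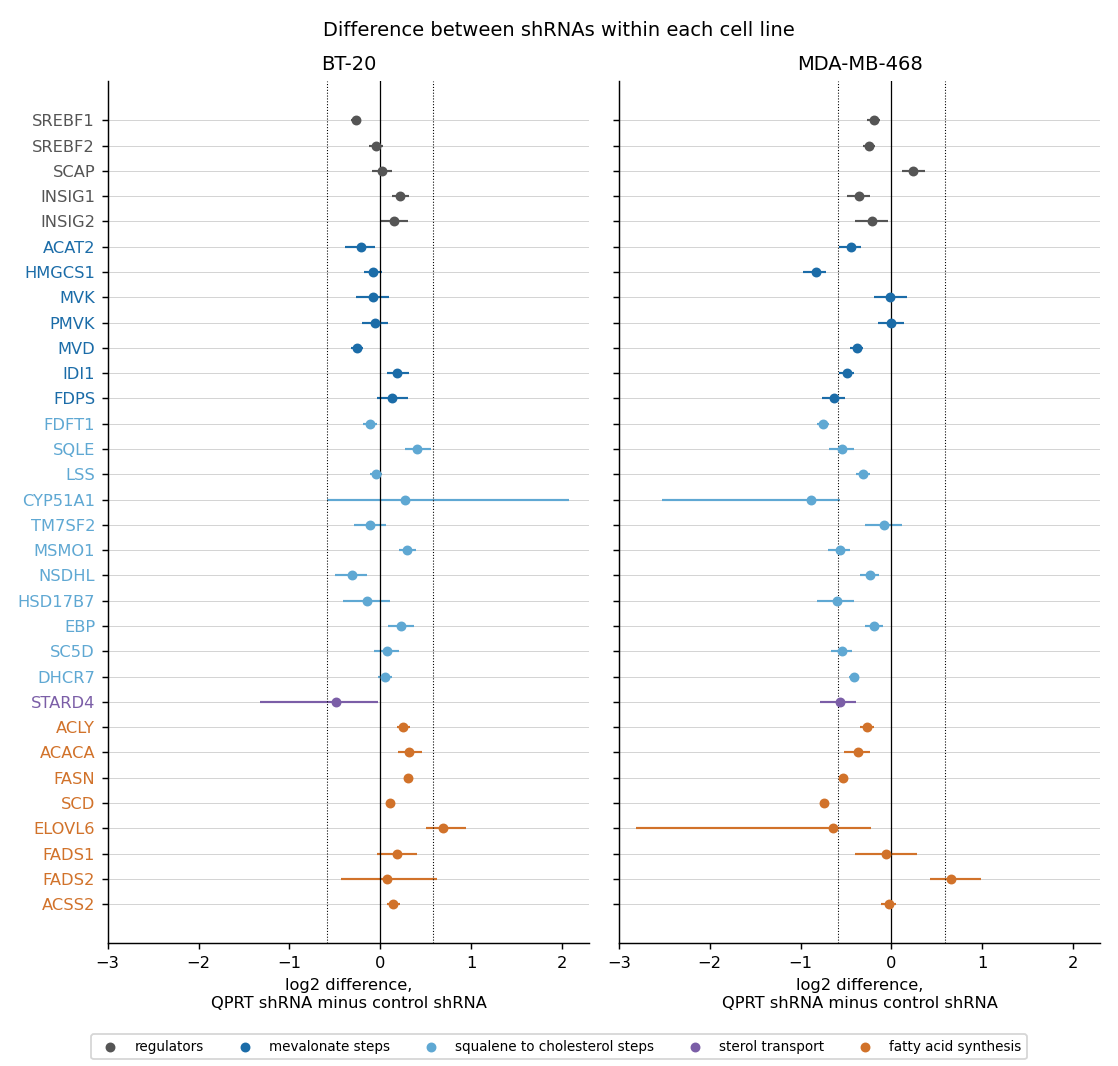
Log2 difference between QPRT shRNA and control shRNA for each of the 32 genes in BT-20 (left) and MDA-MB-468 (right), coloured by role. Points are differences of log2(FPKM + 1), horizontal bars are 95% counting intervals of the log2 ratio of fragments (1 library per group, no replicate error), and dotted lines mark 1.5-fold; 30 of 32 points lie left of 0 in MDA-MB-468 and 13 of 32 in BT-20.

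The mevalonate steps were lower in MDA-MB-468, with a median log2 difference of -0.45 and all 7 genes below 0, and had a median of -0.08 in BT-20. HMGCS1, which condenses acetyl-CoA and acetoacetyl-CoA to HMG-CoA and lies on chromosome 5 from 43289395 to 43313512 (GRCh38), showed the largest difference of them in MDA-MB-468. Its FPKM was 119 and 112 in BT-20 with control and QPRT shRNA, against 95.1 and 52.9 in MDA-MB-468. In this and the following pairs of values the first is with control shRNA. The 2 BT-20 libraries were close to each other, and the MDA-MB-468 library with QPRT shRNA was the lowest of the 4. The log2 difference was -0.83 in MDA-MB-468 (counting interval -0.97 to -0.72) and -0.08 in BT-20 (-0.18 to 0.01).

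FDPS, which makes farnesyl diphosphate, had an FPKM of 51.1 and 56.1 in BT-20, against 124 and 79.9 in MDA-MB-468. IDI1, the isopentenyl diphosphate isomerase, had 61.7 and 70.5 in BT-20, against 152 and 108 in MDA-MB-468. For both genes the 2 MDA-MB-468 libraries were above the 2 BT-20 libraries, and the knockdown differences had opposite signs in the lines (FDPS 0.13 and -0.63, IDI1 0.19 and -0.49). The counting interval in BT-20 included 0 for FDPS (-0.04 to 0.31) and lay above 0 for IDI1 (0.07 to 0.31). ACAT2, a cytosolic thiolase of the first step, was lower with QPRT shRNA in both lines, at 32.2 and 27.6 in BT-20, against 66.7 and 48.7 in MDA-MB-468. In the annotation, 52.3% of its exonic bases are shared with other genes, mainly SOD2-OT1 on the other strand, and the strand used in counting is not given in the sources used here. MVD, the mevalonate diphosphate decarboxylase and the most abundant of the group, had 462 and 386 in BT-20, against 417 and 321 in MDA-MB-468, so it too was lower in both lines.

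The kinases MVK and PMVK differed least of the group in MDA-MB-468. MVK had an FPKM between 30.3 and 32.1 in the 4 libraries and PMVK between 59.5 and 62.0, and the counting interval of each included 0 in both lines. PMVK has neither CCAAT nor the sterol core in the window shown above, whereas MVK holds 5 CCAAT boxes.

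**Figure D2:**
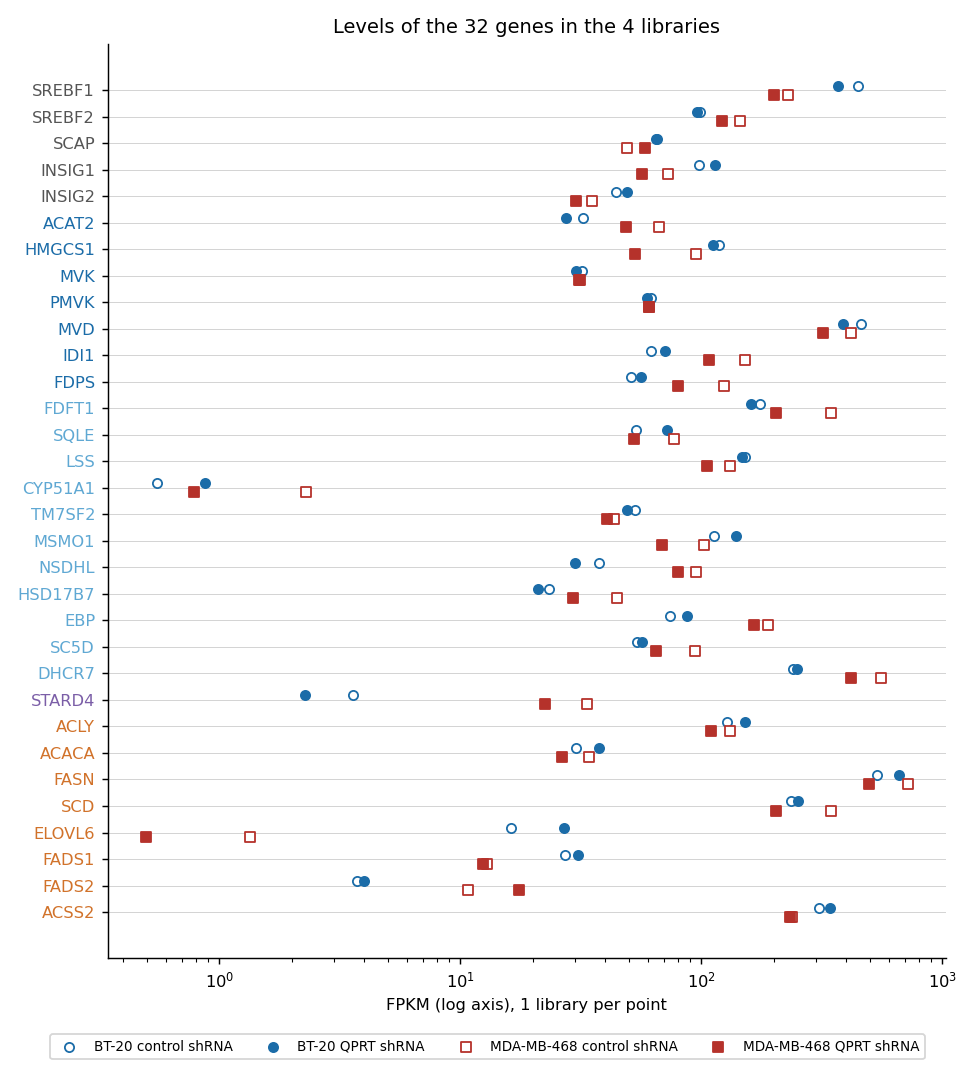
FPKM of the 32 genes in the 4 libraries on a log axis, 1 point per library, with BT-20 as circles and MDA-MB-468 as squares and QPRT shRNA filled. HMGCS1, FDFT1 and SCD show filled squares well left of the open squares, while MVK and PMVK lie on top of each other.

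From squalene to cholesterol, all 11 enzymes were below 0 in MDA-MB-468, with a median of -0.54, whereas 5 of 11 were below 0 in BT-20, with a median of 0.05. FDFT1, the squalene synthase at the branch from isoprenoids to sterols, had an FPKM of 175 and 162 in BT-20, against 346 and 205 in MDA-MB-468. Its level with QPRT shRNA in MDA-MB-468 was above both BT-20 libraries. SQLE, the squalene epoxidase and a rate-limiting step, had 53.9 and 71.8 in BT-20, against 77.2 and 52.7 in MDA-MB-468, so that the order of the lines was opposite with the 2 shRNAs. Its log2 difference was 0.41 (counting interval 0.28 to 0.56) in BT-20 and -0.54 (-0.69 to -0.41) in MDA-MB-468.

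MSMO1, the sterol C4-methyl oxidase, likewise had a positive difference in BT-20 and a negative one in MDA-MB-468, with an FPKM of 113 and 139 in BT-20, against 103 and 68.9 in MDA-MB-468. EBP, the sterol isomerase, had 74.2 and 87.0 in BT-20, against 190 and 166 in MDA-MB-468. SC5D, the sterol C5-desaturase, had 54.3 and 57.1 in BT-20, against 94.6 and 64.7 in MDA-MB-468. DHCR7, the last reductase of the route and its most abundant enzyme in MDA-MB-468, had 240 and 249 in BT-20, against 558 and 420 in MDA-MB-468. For SC5D and DHCR7 the counting interval included 0 in BT-20 and lay below 0 in MDA-MB-468.

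NSDHL, a dehydrogenase of the C4-demethylation complex, was lower with QPRT shRNA in both lines, at 37.6 and 30.1 in BT-20, against 95.3 and 80.5 in MDA-MB-468. HSD17B7, the ketosteroid reductase of that complex, had 23.4 and 21.0 in BT-20, against 44.7 and 29.3 in MDA-MB-468. LSS, the lanosterol synthase, had 152 and 147 in BT-20, against 132 and 106 in MDA-MB-468. TM7SF2, a sterol C14-reductase, lay between 40.8 and 53.2 in the 4 libraries, and its counting interval included 0 in both lines. CYP51A1, the lanosterol demethylase, rested on 9, 15, 39 and 13 fragments in the 4 libraries, and 83.2% of its exonic bases are shared with another annotated gene, mainly AC000120.2 on the same strand. Its level is therefore uncertain. STARD4, which carries cholesterol between membranes, had 3.60 and 2.27 in BT-20, from 54 and 35 fragments, and 33.7 and 22.4 in MDA-MB-468. Its log2 difference was -0.49 and -0.57.

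The 8 fatty acid genes had log2 differences above 0 in BT-20, every one of them, with a median of 0.22, and 7 of 8 were below 0 in MDA-MB-468, with a median of -0.31. Of the 14321 genes tested, 8072 were above 0 in BT-20. Their sums were 2875 and 3302 CPM in BT-20, against 3683 and 2503 in MDA-MB-468. FASN, the fatty acid synthase on chromosome 17 from 82078333 to 82098332, had the highest FPKM of the 32 genes. It was 536 and 661 in BT-20, against 721 and 498 in MDA-MB-468. With control shRNA the MDA-MB-468 library was the higher, and with QPRT shRNA the BT-20 library was. The log2 difference was 0.30 (counting interval 0.26 to 0.34) in BT-20 and -0.53 (-0.58 to -0.50) in MDA-MB-468.

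SCD, the stearoyl-CoA desaturase, had an FPKM of 236 and 253 in BT-20, against 344 and 205 in MDA-MB-468, from 11343 to 20212 fragments. ACLY, which supplies cytosolic acetyl-CoA from citrate, had 127 and 152 in BT-20, against 132 and 110 in MDA-MB-468. ACACA, the acetyl-CoA carboxylase, had 30.1 and 37.8 in BT-20, against 34.3 and 26.4 in MDA-MB-468. In these 3 genes, as in FASN, the MDA-MB-468 library with control shRNA was above the BT-20 library with control shRNA. For ACLY that difference was within counting error (-0.02 to 0.12). The MDA-MB-468 library with QPRT shRNA was the lowest of the 4 for each gene.

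ELOVL6, which elongates palmitate, was expressed in BT-20 at 16.3 and 27.0 FPKM and was low in MDA-MB-468 at 1.34 and 0.50, from 23 and 8 fragments. The ratio of the latter pair was 0.37 and its counting interval on the log2 scale ran from -2.81 to -0.23. ACSS2, which makes acetyl-CoA from acetate, had 309 and 341 in BT-20, against 239 and 234 in MDA-MB-468. The desaturases FADS1 and FADS2 lie next to each other on chromosome 11 in opposite orientation and share 490 exonic bases. FADS1 had 27.2 and 30.9 in BT-20, against 12.9 and 12.4 in MDA-MB-468. FADS2 had 3.73 and 3.996 in BT-20, against 10.8 and 17.6 in MDA-MB-468, where its log2 difference was 0.66 (0.43 to 0.98). FADS2 was thus the 1 fatty acid gene that was higher with QPRT shRNA in MDA-MB-468.

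Among the regulators, SREBF1 was lower with QPRT shRNA in both lines, with an FPKM of 445 and 369 in BT-20, against 230 and 201 in MDA-MB-468. SREBF2 had 98.8 and 95.7 in BT-20, against 145 and 122 in MDA-MB-468, where its log2 difference was -0.24 (counting interval -0.31 to -0.18). SCAP, the escort protein, had 64.8 and 65.6 in BT-20, against 49.4 and 58.5 in MDA-MB-468. INSIG1, which retains SCAP and is itself a target of the pathway, had 97.6 and 114 in BT-20, against 72.8 and 56.6 in MDA-MB-468. INSIG2 had 44.2 and 49.2 in BT-20, against 35.2 and 30.3 in MDA-MB-468. INSIG1 and INSIG2 were thus higher with QPRT shRNA in BT-20 and lower in MDA-MB-468, like SQLE and FASN, whereas SREBF1 was lower in both. The median of the 5 regulators was 0.02 in BT-20, against -0.21 in MDA-MB-468.

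For 11 of the 32 genes the counting interval lay above 0 in BT-20 and below 0 in MDA-MB-468 (8.76% of all genes tested). These were INSIG1, INSIG2, IDI1, SQLE, MSMO1, EBP, ACLY, ACACA, FASN, SCD and ELOVL6. The difference between the lines could not be tested with 1 library per group.

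Over both lines, limma with Benjamini-Hochberg adjustment over all genes called 0 of the 32 genes for the knockdown, in either direction, while 0.265% of all genes were called higher and 0.363% lower. At an unadjusted p under 0.05, 3 of the 32 passed, as did 4.80% of all genes. HMGCS1 had a log2 difference of -0.46 (SE 0.20, limma adjusted p = 0.80), FDFT1 of -0.43 (SE 0.19, adjusted p = 0.81) and STARD4 of -0.53 (SE 0.25, adjusted p = 0.95), each with a lower value in both lines. The same fit on recovered fragments (limma-voom) also called 0, with 3 at an unadjusted p under 0.05 (4.68% of all genes). This fit has 1 residual degree of freedom and estimates the average of the differences in the lines.

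Base composition moved with the knockdown, in opposite directions in the lines, as the plot against GC content shows. Genes rich in A and T were in the median higher with QPRT shRNA in BT-20 and lower in MDA-MB-468. When this trend and that on transcript length were removed from all genes, the median of the 18 sterol enzymes was -0.42 in MDA-MB-468 in place of -0.47, and 0.04 in BT-20 in place of -0.05. The median of the fatty acid genes stayed at -0.31 in MDA-MB-468 and was 0.24 in BT-20. With the trend removed, 30 of the 32 genes were again below 0 in MDA-MB-468. HSD17B7 (-0.54) and ELOVL6 (-0.57) were then no longer 1.5-fold lower in that line, whereas FASN (-0.67) was. Of the genes lower in both lines, MVD was then at -0.02 in BT-20 in place of -0.26, and SREBF1 at -0.14 in place of -0.27. ACAT2, FDFT1, NSDHL and STARD4 were between -0.59 and -0.10 there.

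**Figure D3:**
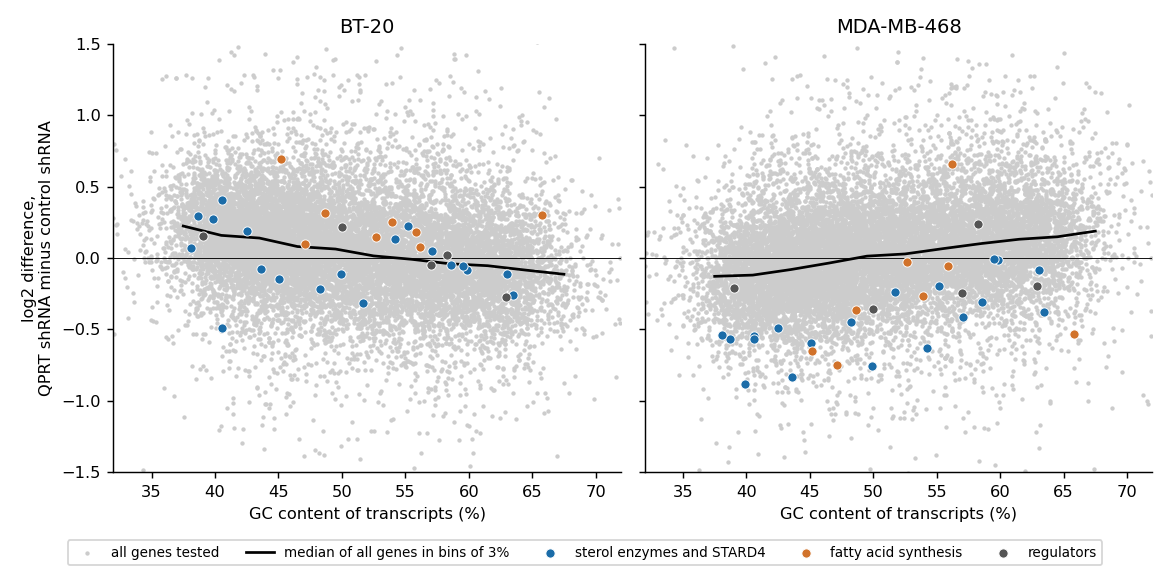
Log2 difference between QPRT shRNA and control shRNA against the GC content of the transcripts in BT-20 (left) and MDA-MB-468 (right), with all genes tested in grey, their median in bins as a line, and the 32 genes coloured by role; genes beyond 1.5 on the vertical axis are not drawn. In MDA-MB-468, 30 of the 32 genes lie below 0, but not equally far at low and high GC content. HMGCS1 (GC content 43.6%) lies at -0.83 and FASN (65.8%) at -0.53, while the genes above 0 are SCAP (58.3%) and FADS2 (56.2%).

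The knockdown difference was compared with the promoter elements as a description. In MDA-MB-468 the median log2 difference was -0.37 for the 20 genes with CCAAT, such as HMGCS1, FDPS, MSMO1, INSIG1, SCD and SREBF2 shown above, and -0.12 for the 8 genes without it. In BT-20 the medians were 0.06 and 0.12. The 8 genes without CCAAT included both CYP51A1 at -0.88 and FADS2 at 0.66 in MDA-MB-468. The 20 genes with it also included MVK at -0.02, ACSS2 at -0.03 and TM7SF2 at -0.09. The element went with role, since it was in 13 of 15 sterol enzymes, 4 of 7 fatty acid genes and 2 of 5 regulators. Element and role cannot be told apart here, and all genes tested were not split by CCAAT.

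The lines themselves were compared over both shRNAs with limma. Of the 32 genes, 12 were higher in MDA-MB-468 (30.7% of all genes) and 8 lower (24.4%), so the share of members called was near that of all genes. STARD4 had the largest difference upward, at 2.88 (SE 0.25, limma adjusted p = 4.0e-28), and was higher in MDA-MB-468 with both shRNAs. It was followed by FADS2 at 1.61, NSDHL at 1.35 and EBP at 1.13. DHCR7, IDI1, ACAT2, FDPS, HSD17B7, FDFT1, SC5D and SREBF2 were higher by 0.45 to 0.98. ELOVL6 had the largest difference downward, at -3.56 (SE 0.27, adjusted p = 1.8e-37), followed by FADS1 at -1.13 and SREBF1 at -0.91. INSIG1, HMGCS1, MSMO1, INSIG2 and ACSS2 were lower by 0.46 to 0.71. ELOVL6 passed the filter on mean FPKM through its BT-20 values (16.3 and 27.0, against 1.34 and 0.50 in MDA-MB-468). Its call is therefore not independent of the filter. Of these 20 calls, 6 were made whichever library was left out, namely EBP, ELOVL6, FADS1, NSDHL, SREBF1 and STARD4. With a library left out, the fit had the cell line alone in the model. Without the BT-20 control shRNA library 6 of the 32 were called (31.2% of all genes), and without the BT-20 QPRT shRNA library likewise 6 (33.0%). Without the MDA-MB-468 control shRNA library 12 were called (33.9%), and without the MDA-MB-468 QPRT shRNA library 15 (33.5%).

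The distance between the lines was also read for each shRNA apart. With control shRNA the sterol enzymes had a median of 0.85 toward MDA-MB-468, and with QPRT shRNA a median of 0.11, beside 0.12 and 0.07 for all genes. They were split, with 11 of the 18 above 0 and 7 below with either shRNA, and ran from -0.32 to 1.34 with control shRNA. Of the 14321 genes tested, 7944 were above 0 with control shRNA and 7615 with QPRT shRNA. For the fatty acid genes the medians were 0.12 and -0.48. These comparisons share their libraries with the knockdown differences above and hold the same values in another order. With control shRNA, 12 of the 32 genes were at least 1.5-fold higher in MDA-MB-468 (31.1% of all genes) and 3 lower (23.1%). With QPRT shRNA, 7 were higher (29.2%) and 7 lower (23.9%). SCD, SQLE, FASN, ACACA, ACLY and CYP51A1 were higher in MDA-MB-468 with control shRNA and lower with QPRT shRNA. The counting interval included 0 for ACLY with control shRNA (-0.02 to 0.12) and for CYP51A1 with QPRT shRNA (-1.32 to 1.05). CYP51A1 is among the 12 higher genes with control shRNA, and it passed the filter only through that MDA-MB-468 library.

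**Figure D4:**
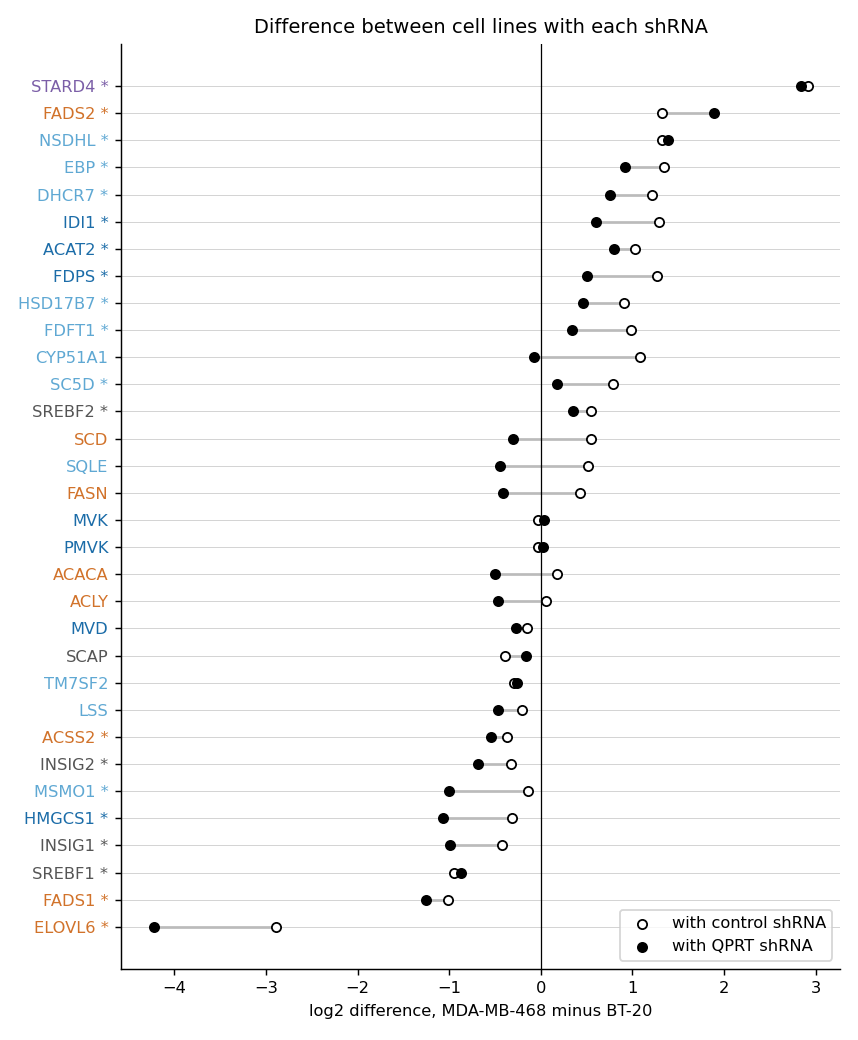
Difference in log2(FPKM + 1) between MDA-MB-468 and BT-20 with control shRNA (open) and with QPRT shRNA (filled) for the 32 genes, 1 library per line and shRNA, ordered by the limma estimate, with an asterisk for an adjusted p under 0.05. For 25 of the 32 genes the filled point lies left of the open point, as it would for 7602 of the 14321 genes tested. The medians of the sterol enzymes are 0.85 and 0.11.

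Genes next to these pathways were read from lists by function, where the highest share below 0 in MDA-MB-468 was 9 of 12, for fatty acid oxidation. Of 10 genes of SREBP processing and turnover, 4 were below 0 there (median 0.05). MBTPS2, the site-2 protease that releases the active factor, had 3.97 and 4.04 FPKM in BT-20, against 8.29 and 4.76 in MDA-MB-468, and was 1.5-fold lower in the latter. ERLIN2, which takes part in degradation of sterol-regulated proteins, had 23.6 and 37.3 in BT-20, against 29.7 and 27.3 in MDA-MB-468. Of 13 genes of the isoprenoid branches, 7 were below 0 in MDA-MB-468 (median -0.0031). RCE1, the protease of prenylated proteins, had 31.2 and 20.9 in BT-20, against 44.5 and 61.9 in MDA-MB-468, and FNTB, the farnesyltransferase beta subunit, 4.95 and 3.13 and then 4.47 and 4.20.

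Of the 6 genes of LXR, the oxysterol receptor, and its targets, 3 were below 0 in each line. ABCA1, the cholesterol exporter, had an FPKM of 1.86 and 4.37 in BT-20, against 0.45 and 0.45 in MDA-MB-468. NR1H3, which encodes LXR alpha, had 12.1 and 12.6 in BT-20, against 23.1 and 34.1 in MDA-MB-468. Of 12 genes of cholesterol transport and storage, 4 were below 0 in BT-20, against 6 in MDA-MB-468. NPC1, which moves cholesterol out of lysosomes, had 14.3 and 22.2 in BT-20, against 34.8 and 33.1 in MDA-MB-468, and GRAMD1B, a sterol carrier at membrane contacts, 24.2 and 34.5 and then 5.80 and 5.04.

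Of 14 other genes of elongation and desaturation, 7 were below 0 in each line. HSD17B12, the ketoacyl-CoA reductase of elongation, had an FPKM of 85.3 and 82.6 in BT-20, against 180 and 119 in MDA-MB-468, where it was 1.5-fold lower. HACD1, a dehydratase of the same cycle, had 83.6 and 59.0 in BT-20, against 5.58 and 8.74 in MDA-MB-468. Of the 4 tested genes of lipogenic carbon supply and control, 3 were below 0 in BT-20, against 2 in MDA-MB-468. ME1, the malic enzyme that supplies NADPH, had 52.6 and 45.6 in BT-20, against 18.0 and 10.4 in MDA-MB-468, and MID1IP1, an activator of acetyl-CoA carboxylase, 22.5 and 20.6 and then 48.4 and 64.5.

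Of the genes of acyl-CoA and glycerolipid synthesis, 4 of 10 were below 0 in BT-20 (median 0.22) and 7 of 10 in MDA-MB-468 (median -0.11). ACSL5, an acyl-CoA synthetase, had 5.94 and 8.86 in BT-20, against 4.12 and 1.83 in MDA-MB-468, and DGAT2, which makes triglycerides, 3.62 and 7.05 and then 7.42 and 8.69. Of 12 genes of fatty acid oxidation, 7 were below 0 in BT-20 (median -0.02) and 9 in MDA-MB-468 (median -0.21). ETFB, an electron carrier of beta-oxidation, had 17.1 and 11.4 in BT-20, against 3.99 and 5.66 in MDA-MB-468, and ACADM, the medium-chain dehydrogenase, 69.1 and 97.5 and then 62.2 and 47.1. Over the 81 tested genes of these 8 lists, 0 were 1.5-fold lower in BT-20 (3.27% of all genes) and 5 were higher (5.70%), namely ERLIN2, ABCA1, NPC1, ACSL4 and DGAT2. In MDA-MB-468, 4 were lower (3.71%), namely MBTPS2, HSD17B12, ME1 and ACSL5, and RNF139 alone was higher (5.46%). Apart from the absence of lower genes in BT-20 and the single higher gene in MDA-MB-468, these shares were near those of all genes. The counts of members and of these genes were not tested against each other.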

How the data were processed

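RNA was extracted with Trizol, and libraries were made from total RNA with the Illumina TruSeq kit and sequenced on an Illumina NovaSeq instrument. The deposited values are FPKM, with 1 column for each library. Their processing notes name FastQC, MultiQC, CASAVA, TopHat2 2.0.12 and HTSeq 0.6.1. The genome build and annotation are not given in the sources used here. Gene names, lengths and coordinates were taken from GENCODE 29 (GRCh38), which matched 49839 of 50653 rows, and 36 rows with a repeated symbol were left out.

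FPKM multiplied by the mean transcript length and divided by the worth of 1 fragment was whole, with a tolerance of 0.02, in 87.2% to 87.6% of the nonzero values and in 102 of the 128 that belong to the 32 genes. The others were rounded, so fragment numbers of genes with several transcripts are estimates. Fragments carry no molecular identifiers, and the exact Clopper-Pearson 95% intervals cover counting error only. They belong to the ratio of fragments, while differences are on the log2(FPKM + 1) scale, which understates those of low genes. FPKM with a mean transcript length makes levels of different genes only roughly comparable.

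For the 14321 genes whose mean FPKM was 1 or more, log2(FPKM + 1) was fitted with limma 3.58.1 in R 4.3.3, with cell line and shRNA in the model, eBayes with trend and Benjamini-Hochberg adjustment over all of them (threshold 0.05). The study's count test was not run, since the values are FPKM; limma-voom on recovered fragments was an alternative. No source names separate cultures, so p-values measure the spread between these libraries. With 1 library per group, that spread is how far the knockdown difference departs between the lines, and not a spread between replicates. That spread was in effect pooled over genes of similar level and was not that of each gene. SQLE and PMVK had SEs of 0.206 and 0.207, though their knockdown differences in the lines lay -0.95 and 0.05 apart. Very small p-values of single genes therefore do not rest on how well the libraries agree for that gene. The fit was first run on simulated data. There the knockdown differences were larger than those of the members and were the same in both lines. That run does not show how the fit performs on these genes. Other steps ran in Python 3.11.15 with pandas 2.3.3, numpy 2.4.6, statsmodels 0.14.6, scipy 1.17.1 and matplotlib 3.10.9.

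The 32 members and all lists were chosen with earlier results of these data known. Of each neighbouring list, the text names up to 3 genes past 1.5-fold in the same direction in both lines or, failing that, the 2 with the largest difference in either line. Further genes named in counts were chosen after their values were seen. Alternatives were a pseudocount of 0.1, upper quartile and TPM scaling, no filter or a mean FPKM of at least 5, removal of the lowess trend on GC content and length (fraction 0.3), a threshold of 2-fold, other limma settings and leaving out each library.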

Additional observations from a re-analysis of the deposited data

Results flagged for a closer look

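With QPRT shRNA, 11 genes were higher in BT-20 and lower in MDA-MB-468 beyond counting error (8.76% of all genes tested), which drew attention to them. The knockdown difference in MDA-MB-468 minus that in BT-20, on the log2(FPKM + 1) scale, was -0.58 for INSIG1 and -0.36 for INSIG2 among the regulators. It was -0.68 for IDI1, -0.95 for SQLE, -0.87 for MSMO1 and -0.42 for EBP among the sterol enzymes. It was -0.51 for ACLY, -0.68 for ACACA, -0.84 for FASN, -0.85 for SCD and -1.34 for ELOVL6 among the fatty acid genes, of which ELOVL6 rests on 8 and 23 fragments in MDA-MB-468. The median over the 8 fatty acid genes was -0.60. The difference between the lines was not tested in any of these cases, since each group has 1 library.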

How the results depend on the processing

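No called value changed sign under any alternative run, and the counts of the 32 genes below 0 stayed within 1.5 times. Medians near 0 in BT-20 did change sign: that of the sterol enzymes from -0.05 to 0.04 and that of the mevalonate steps from -0.08 to 0.02 with the GC content and length trend removed, and that of the regulators from 0.018 to -0.0029 with upper quartile scaling. With the trend removed, 3 in place of 5 mevalonate genes and 1 in place of 0 fatty acid genes, namely SCD, were below 0 in BT-20. With a threshold of 2-fold, 0 of the 32 genes were higher in BT-20, 0 were higher and 0 lower in MDA-MB-468, and between the lines with QPRT shRNA 3 were higher and 4 lower in MDA-MB-468. With a pseudocount of 0.1, and likewise with the GC content and length trend removed, 1 gene was 1.5-fold lower in BT-20. The shares of all genes past the threshold under these settings were not computed. The median of the sterol enzymes between the lines with control shRNA was 0.63 with that trend removed, and 0.65 without ACAT2 and CYP51A1, an alternative chosen after seeing the data because of their shared exons. With no filter on low values limma called 7 members higher and 3 lower in MDA-MB-468, where 28425 genes entered the fit. Calls between the lines were then fewer among all genes too, at 5681 of 28425, against 7893 of 14321 in the main fit. When 1 library was left out, and the shRNA with it from the model, limma called 3 to 12 higher and 3 to 6 lower, and 6 of the 20 members were called each time. Under the 9 other alternatives, 10 of the 20 were called each time. The knockdown called 0 members under every limma setting run. It was not run with a library left out: with the cell line in the model no residual degree of freedom would be left, and without it the line difference would enter the estimate. The knockdown fit is paired by cell line, over 2 pairs, and without that block it also called 0 members. Depth limits CYP51A1 in all libraries, STARD4 in BT-20 and ELOVL6 in MDA-MB-468.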
